A study of Mus musculus with 4 samples.

Results

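The motifs of the Bach, Nfe2 and Maf transcription factors were examined in regulatory T cells (Tregs, CD4+ FOXP3+) of mouse spleen. They were the rows of the authors' chromVAR deviation score table named for Bach1, Bach2, Nfe2, Nfe2l1, Nfe2l2, Maf, Mafk, Mafg or Maff. Of these 9 factors, 8 were present, and Maff had no row among those analysed here. They held 12 of the 1346 motif entries of the table. Maf had 5 entries, which are called here by the number in their row name, and each other factor had 1. Row names carry the letter D for Nfe2l2, Mafg and Mafk and I for the other entries, a mark that was not used here. Accessibility had been measured by ATAC-seq, in which a transposase cuts DNA that is open in nuclei. The animals of every group were wild type and of the strain B6.Cg-Foxp3tm2Tch/J, the FOXP3-IRES-GFP line, in which GFP is expressed from the Foxp3 locus. They received vehicle (2 samples) or venetoclax at 50 mg/kg (2 samples) for 14 days. Venetoclax is a drug that blocks BCL-2, a protein that protects cells from apoptosis. The labels used here give no age, and they call the samples biological replicates without saying which animals each came from. P-values therefore measure the spread between these samples, which may be partly technical.

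These factors are basic leucine zipper (bZIP) proteins. Bach and Nfe2 proteins belong to the cap'n'collar branch and bind DNA as partners of small Maf proteins, at sites that contain an AP-1-like core. Bach1 and Bach2 are mainly repressors, and Bach1 is released from DNA by heme. The Nfe2 proteins are activators, of which Nfe2l2 (Nrf2) drives antioxidant genes and Nfe2l1 (Nrf1) proteasome genes. In T cells Bach2 restrains effector differentiation, sustains Tregs and limits access of AP-1 factors to shared sites, and Maf (c-Maf) is used by effector and intestinal Tregs. The comparison asked whether accessibility at the motifs of the repressors, activators and Maf factors differed between venetoclax and vehicle.

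A score describes all peaks that hold a motif and has no unit. By chromVAR's usual method, a score above 0 means that these peaks were more accessible in the sample than expected from the samples scored together, after correction with background peaks, and a score below 0 means the opposite. The zero of each motif is thus set by those samples, which may include the 8 sample columns not used here. A score compares samples for 1 motif, and scores of different motifs do not show which sites are more open. The score says nothing of how much of the factor was made or bound, and the cell type could not be checked against marker genes with it. The table gives no read counts, so the depth is unknown. The median score of all motifs was between 0.093 and 0.18 in 3 samples and -0.28 in venetoclax replicate 2. Every difference below is the venetoclax mean less the vehicle mean, in score units. The median difference of all motifs was -0.29, with 61.3% of motifs negative. Centring each sample on its own median added 0.26 to every difference.

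In limma, 0 of the 12 motifs reached the threshold of 0.05 on the adjusted p, beside 0% of all 1346 motifs. With a trended and robust variance it was again 0 of the 12, where 5.5% of all motifs passed. The adjusted p of the 12 ranged from 0.24 to 0.979. At an unadjusted p under 0.05 there was 1 of the 12, Nfe2l2, beside 18.3% of all motifs. The vehicle and venetoclax samples did not overlap for 3 of the 12, beside 48.3% of all motifs. These were Nfe2l2 and Nfe2l1, lower with venetoclax (31.1% of all motifs), and Maf entry 663, higher with venetoclax (17.2% of all motifs). The share of the family with separate groups was thus 25%, below that of all motifs. The median difference of the 12 motifs was -0.083, with 5 positive and 7 negative. After centring, the median was 0.18 with 8 positive and 4 negative, beside a median of -0.028 for all motifs.

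**Figure D1:**
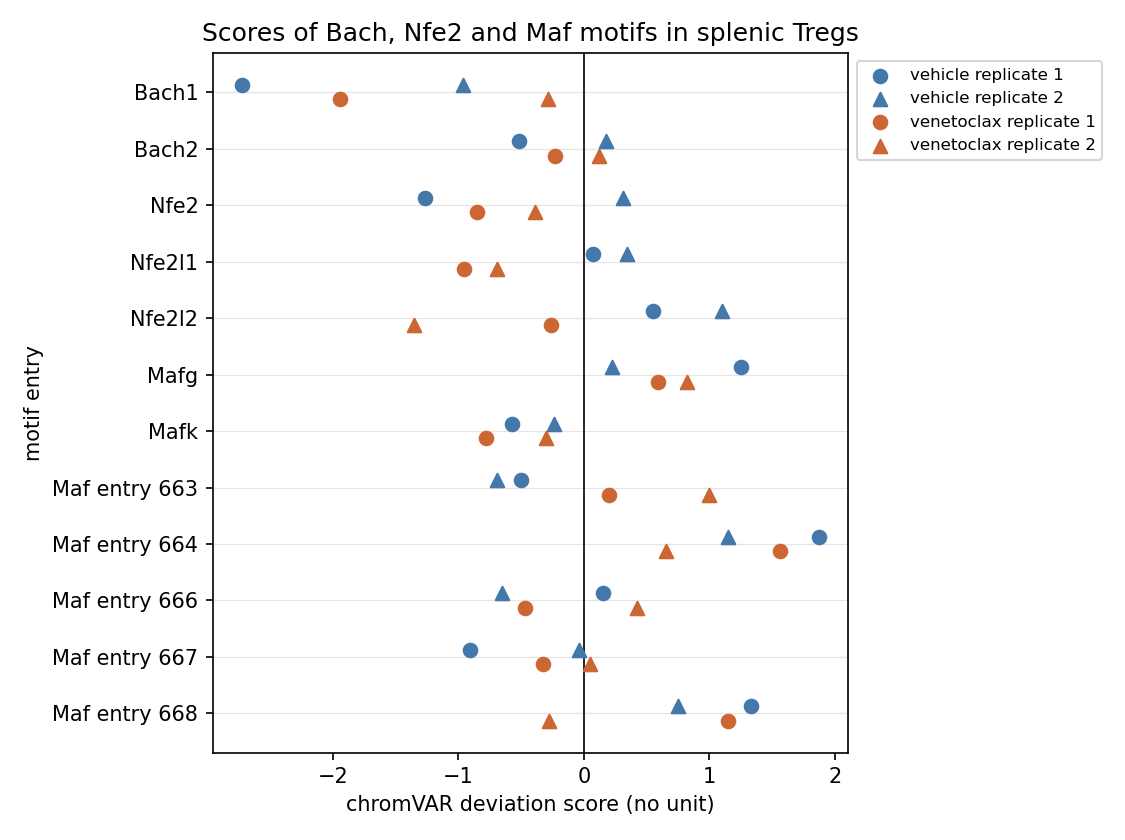
Scores (horizontal axis, no unit) of the 12 motif entries (vertical axis) in each of the 4 samples, with colour for the treatment and marker shape for the replicate number. Bach1 reached -2.73 in vehicle replicate 1, and the groups are separate for Nfe2l1, Nfe2l2 and Maf entry 663.

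Of the repressors, Bach1 (ENSMUSG00000025612) was below Bach2 in each of the 4 samples. Its scores were -2.73 and -0.97 in vehicle replicates 1 and 2, and -1.95 and -0.28 in venetoclax replicates 1 and 2. All 4 scores were below 0, the groups overlapped, and the gap between replicates of a group was larger than that between the groups. The score of -2.73 was the lowest of all 1346 motifs in vehicle replicate 1. In venetoclax replicate 1 the Bach1 motif had rank 15 from the lowest, whereas 10.5% of motifs were lower in vehicle replicate 2 and 49.3% in venetoclax replicate 2. Averaged over the 4 samples, the Bach1 score was -1.48, and 0.223% of motifs had a lower average. The Bach1 difference was 0.73 (SE 0.78, 95% interval -0.89 to 2.35, limma adjusted p = 0.67). It was -0.15 without vehicle replicate 1 and -0.10 without venetoclax replicate 2.

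Replicate 2 exceeded replicate 1 for the Bach1 motif by 1.76 with vehicle and by 1.66 with venetoclax. The venetoclax minus vehicle difference was 0.78 between the samples numbered 1 and 0.68 between those numbered 2. With the replicate number as a block the Bach1 difference stayed at 0.73 with an SE of 0.64 (limma adjusted p = 0.681). No label says that the numbers pair the samples.

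Bach2 (ENSMUSG00000040270), the repressor with the best known role in Tregs, stayed near 0. Its scores were -0.51 and 0.18 with vehicle and -0.23 and 0.12 with venetoclax. Both venetoclax values lay between the vehicle values. The range over the 4 samples was 0.69, where the median motif had a range of 1.61. The Bach2 difference was 0.11 (SE 0.69, 95% interval -1.33 to 1.55, limma adjusted p = 0.941), which leaves differences of over 1 score unit in either direction within the interval. The sign was negative without vehicle replicate 1 (-0.24) or venetoclax replicate 2 (-0.063).

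Among the activators, Nfe2l2 (ENSMUSG00000015839), the antioxidant regulator Nrf2, had the largest difference of the 12. With vehicle it scored 0.55 and 1.10, and with venetoclax -0.26 and -1.36. Both vehicle scores were positive and both venetoclax scores negative. In vehicle, 67.5% and 84.8% of motifs were below Nfe2l2, against 35.2% and 11.4% in venetoclax. The Nfe2l2 difference was -1.64 (SE 0.71, 95% interval -3.11 to -0.17, unadjusted p = 0.0309, limma adjusted p = 0.24), and 9.44% of all motifs had a more negative one. After centring the Nfe2l2 difference was -1.38, with an unadjusted limma p of 0.0532 (limma adjusted p = 0.32). In the scores as deposited, leaving out 1 sample at a time gave values from -2.18 to -1.09, the last of them without venetoclax replicate 2. Without venetoclax replicate 1 the difference was -2.18. That fit assumed that the lone venetoclax sample varied like the vehicle samples, and it gave each of the 12 the same SE (0.74).

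Nfe2l1 (ENSMUSG00000038615), the regulator of proteasome genes, had the same 4 scores as Nfe2l3, a related cap'n'collar factor, so the entries are 1 measurement. The scores were 0.070 and 0.35 with vehicle and -0.95 and -0.70 with venetoclax. Replicates were close, and both venetoclax samples lay below both vehicle samples. The Nfe2l1 difference was -1.03 (SE 0.68, 95% interval -2.46 to 0.39, limma adjusted p = 0.45). Leaving out 1 sample at a time gave values from -1.17 to -0.89, and centring gave -0.77. Its SD was 0.20 with vehicle and 0.18 with venetoclax (n = 2 each). The limma SE, shared over motifs, is larger than these samples alone would give.

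Nfe2 (ENSMUSG00000058794), the founding member with a role in platelet and red cell genes, had overlapping groups, unlike Nfe2l1 and Nfe2l2. With vehicle it scored -1.26 and 0.31, and with venetoclax -0.85 and -0.39. The vehicle samples enclosed the venetoclax samples. The Nfe2 difference was -0.15 (SE 0.73, 95% interval -1.66 to 1.37, limma adjusted p = 0.923). That interval held the differences of Nfe2l1 (-1.03) and Nfe2l2 (-1.64), and whether these differ from that of Nfe2 was not tested. The Nfe2 difference was 0.64 without vehicle replicate 2, 0.084 without venetoclax replicate 1 and 0.11 after centring.

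**Figure D2:**
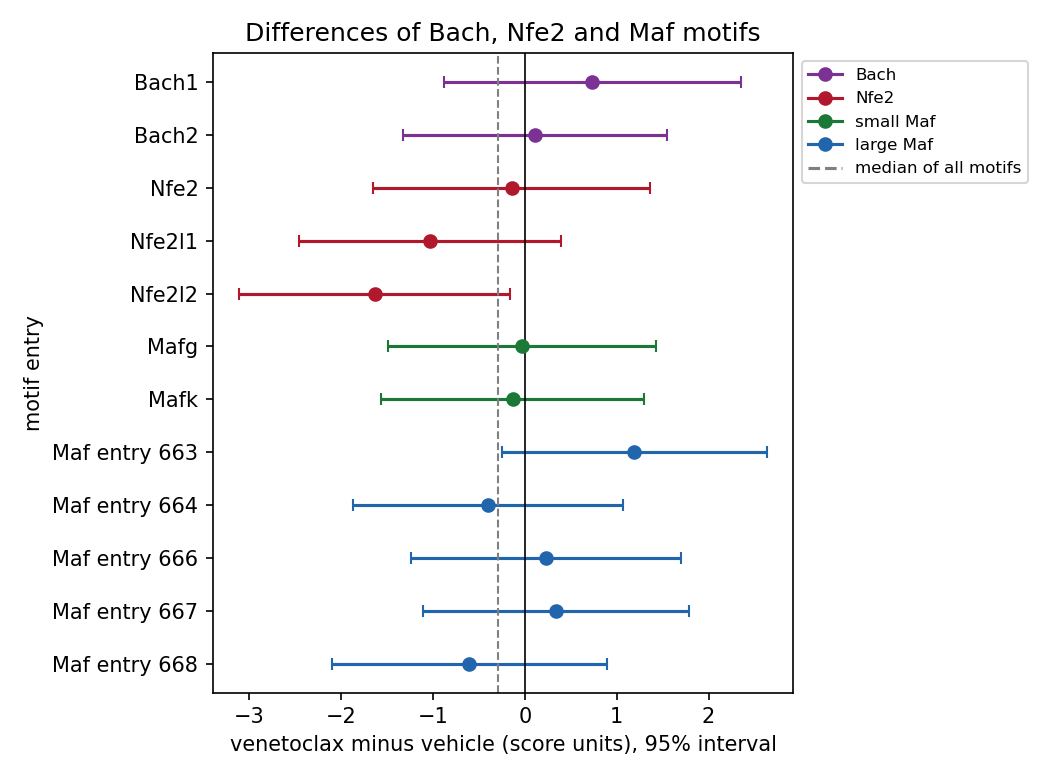
Venetoclax minus vehicle difference of each motif entry with its 95% interval from limma, in score units, coloured by the role of the factor, with the median of all motifs as a dashed line. In the scores as deposited, the interval of Nfe2l2 (-3.11 to -0.17) is the single one of the 12 that leaves out 0.

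The small Maf proteins lack an activation domain and serve as partners of both Bach and Nfe2 proteins. With vehicle the Mafk motif (ENSMUSG00000018143) scored -0.57 and -0.24, and with venetoclax -0.78 and -0.30. The groups overlapped, and all 4 scores were negative within a range of 0.54, the narrowest of the 12. The Mafk difference was -0.13 (SE 0.69, 95% interval -1.56 to 1.30, limma adjusted p = 0.927). The Mafg motif (ENSMUSG00000051510) was positive in all samples, at 1.25 and 0.23 with vehicle and 0.59 and 0.82 with venetoclax. Both venetoclax scores lay between the vehicle scores, and the Mafg difference was -0.034 (SE 0.70, 95% interval -1.49 to 1.42, limma adjusted p = 0.979). The scores of the Mafk and Mafg motifs did not overlap in these samples. Each motif has its own zero, so this does not compare their sites or the proteins. After centring the difference was 0.13 for Mafk and 0.23 for Mafg.

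Maf (ENSMUSG00000055435), a large Maf protein with an activation domain of its own, had 5 entries that differed in level and in direction. Each repeated the scores of Mafa, a related large Maf factor, and entry 664 also those of Nrl. They are therefore motifs of the large Maf group rather than of Maf alone. With vehicle entry 663 scored -0.50 and -0.69, and with venetoclax 0.20 and 1.00. Both vehicle scores were negative and both venetoclax scores positive. Its difference was 1.19 (SE 0.69, 95% interval -0.25 to 2.63, limma adjusted p = 0.395), with 9.21% of all motifs more positive. Leaving out 1 sample at a time gave values from 0.80 to 1.59, the lowest without venetoclax replicate 2. Centring gave 1.45.

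Maf entry 664, shared with Mafa and Nrl, had the highest score of the family in 3 of the 4 samples. Its scores were 1.88 and 1.15 with vehicle and 1.57 and 0.66 with venetoclax. In each sample at least 84.3% of all motifs had a lower score, and the groups overlapped. In venetoclax replicate 2, Maf entry 663 and Mafg scored higher. Its difference was -0.40 (SE 0.71, limma adjusted p = 0.799). Entry 668 was next, at 1.33 and 0.75 with vehicle and 1.15 and -0.28 with venetoclax, a difference of -0.60 (SE 0.72, limma adjusted p = 0.701). In entry 668 venetoclax replicate 2 was the single sample below 0, and without it the difference was 0.11. Entries 666 and 667, both shared with Mafa, differed by 0.23 (SE 0.71) and 0.34 (SE 0.70), with limma adjusted p of 0.881 and 0.827. The groups overlapped in both, with scores from -0.91 to 0.42.

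Ordered by the average score over the 4 samples, which is not an order of accessibility, Maf entry 664 (1.31) came first, followed by Maf entry 668 (0.74), Mafg (0.72), Nfe2l2 (0.010), Maf entry 663 (0.0023), Bach2 (-0.11), Maf entry 666 (-0.14), Nfe2l1 (-0.308), Maf entry 667 (-0.309), Mafk (-0.47), Nfe2 (-0.55) and Bach1 (-1.48). Every neighbouring pair in this order overlapped in its sample values. The ends of the order did not, since the highest Bach1 score (-0.28) was below the lowest score of Maf entry 664 (0.66).

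The roles were then compared by their mean score per sample. The mean of the 2 Bach motifs was -1.62 and -0.39 with vehicle and -1.09 and -0.083 with venetoclax. The groups overlapped, with replicate 2 above replicate 1 in each. The mean of the 3 Nfe2 motifs was -0.21 and 0.59 with vehicle and -0.69 and -0.81 with venetoclax. Both venetoclax samples lay below both vehicle samples, as in Nfe2l1 and Nfe2l2 but not in Nfe2. The small Maf mean was 0.34 and -0.0068 with vehicle and -0.095 and 0.26 with venetoclax, and the large Maf mean was 0.39 and 0.10 against 0.42 and 0.37. Both Maf means overlapped between the groups.

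**Figure D3:**
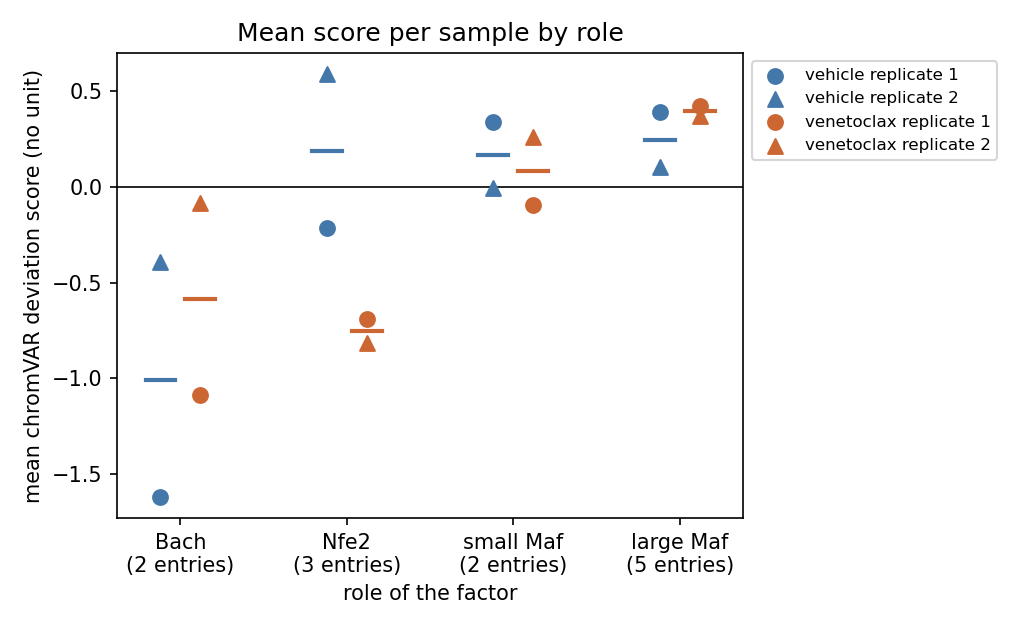
Mean score per sample (points) and per group (bars) of the motifs of each role, with the number of entries under each name and the score without unit on the vertical axis. The Nfe2 motifs have both venetoclax samples (-0.69 and -0.81) below both vehicle samples (-0.21 and 0.59), while the other roles overlap.

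The difference between venetoclax and vehicle was 0.42 for the Bach mean, -0.94 for the Nfe2 mean, -0.083 for the small Maf mean and 0.15 for the large Maf mean. After centring these were 0.68, -0.68, 0.18 and 0.41, so the small Maf difference changed sign. With 1 sample left out the small Maf difference went from -0.26 to 0.095 and the large Maf difference from 0.0058 to 0.29. The Bach mean minus the Nfe2 mean was -1.41 and -0.98 with vehicle and -0.40 and 0.73 with venetoclax. The mean score of the repressor motifs was below that of the activator motifs in 3 of the 4 samples and above it in venetoclax replicate 2. Each motif has its own zero, so the levels compared in this paragraph are not an order of accessibility. Bach1 was the lower of the Bach motifs in every sample. Bach2 alone was above the Nfe2 mean in both venetoclax samples (-0.23 and 0.12 against -0.69 and -0.81) and below it with vehicle. The Bach minus Nfe2 contrast was higher by 1.36 with venetoclax, and by 0.79 without venetoclax replicate 2, the lowest value with a sample left out. Centring cannot change this contrast, since the same median is taken from both means of a sample. The Bach mean minus the mean of all 7 Maf motifs was -2.00 and -0.47 with vehicle and -1.36 and -0.42 with venetoclax. The mean score of the Bach motifs was below that of the Maf motifs in every sample. Bach2 alone was above the Maf mean in vehicle replicate 2 (0.18 against 0.072) and below it in the others. The Bach minus Maf contrast differed by 0.34 between the treatments, but by -0.43 without vehicle replicate 1 and by -0.13 without venetoclax replicate 2. These contrasts were not tested, since the members were chosen with earlier results known, and 2 samples against 2 could not give an exact permutation p under 0.333.

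Among other cap'n'collar and Maf factors, all 7 entries of Nfe2l3, Mafa and Nrl repeated scores of the 12, so they add no measurement of their own. AP-1 and Batf factors, the bZIP proteins with the most similar core site, had 16 entries and no scores in common with the 12. They held 13 distinct sets of scores, since the Batf3 entries repeated those of Batf. With repeats counted, the differences were positive for 11 and negative for 5, beside 61.3% negative among all motifs, and none passed the test. The AP-1 and Batf median was 0.78, and 0.68 over distinct sets. The groups did not overlap for 13 of the 16 entries, repeats counted, beside 48.3% of all motifs and 3 of the 12 here. The AP-1 entries at the ends were Fosb (2.59, SE 0.76) and Junb (-1.57, SE 0.69). Creb and Atf factors had 13 entries in 12 distinct sets, 9 entries positive and 4 negative, with none passing the test. Their median was 0.71, and 0.44 over distinct sets. The groups did not overlap for 4 of the 13 Creb and Atf entries (30.8%), beside 48.3% of all motifs. Whether the lists differ from one another was not tested.

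**Figure D4:**
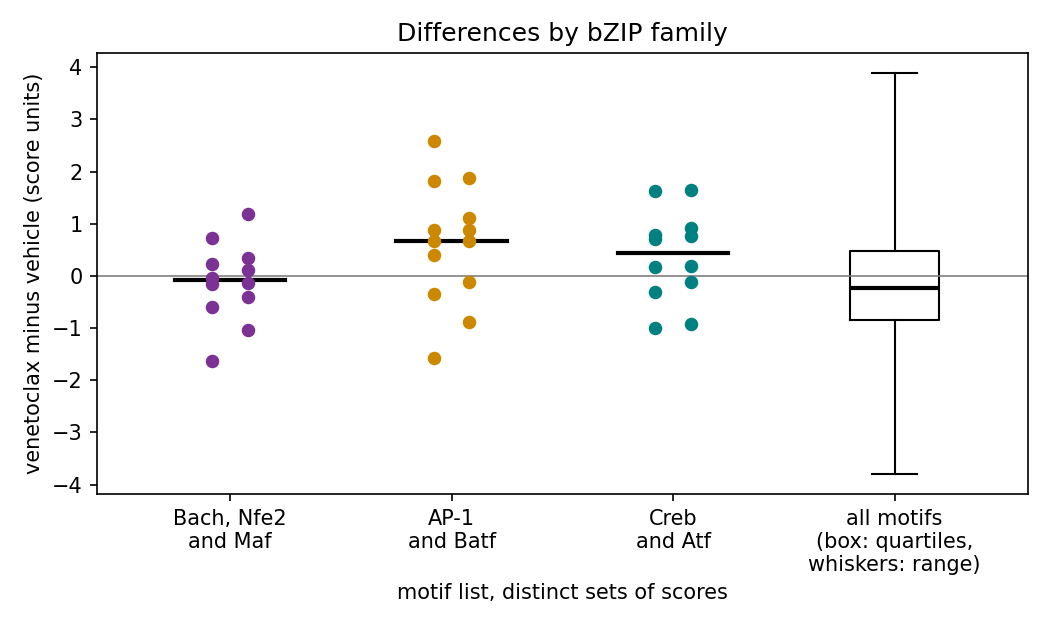
Venetoclax minus vehicle differences (score units) of the motifs of 3 bZIP lists, each distinct set of scores drawn once, with the median as a bar, beside all motifs as a box of quartiles with whiskers over the range. The medians drawn are -0.083 for Bach, Nfe2 and Maf, 0.68 for AP-1 and Batf, 0.44 for Creb and Atf and -0.23 for all motifs.

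Motifs of other factors with the most similar scores were found by Euclidean distance over the 4 samples. For Nfe2l2 they included Rfx7 (distance 0.33) and a motif shared by Foxa3 and other forkhead factors (0.40), beside a median distance of 2.11. Their differences of -1.67 and -1.70 were close to that of Nfe2l2, and neither is a bZIP factor. For Bach2 the nearest were Dobox4 (0.26), Pou2f2 (0.35) and Foxd4 (0.40), beside a median of 1.73. For Mafk they were the motif shared by Tcfcp2l1 and Ubp1 (0.23) and that of Mypop (0.30), beside a median of 1.89. With 4 samples, likeness of this kind describes these libraries only.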

How the data were processed

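Scores of 1346 motif entries in 2 vehicle and 2 venetoclax samples were used as deposited. The authors' table gives chromVAR deviation scores, as its file name says, with 1 value for each motif in each sample. Per the submitters' processing notes, Bowtie2, Picard, MACS2 and the build mm10 were used, with no version or role stated. Not given in the sources used here are the peak set, background peaks, read filters, motif collection and whether the score is a z-score. Of the 12 sample columns, 8 match no sample of the labels and were not used. For 1346 entries the difference in the authors' deposited table matched the one computed from the scores (tolerance 1e-09). Distinct sets of the 4 scores numbered 976.

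Scores were compared with limma 3.58.1 (lmFit, eBayes; R 4.3.3), two-sided, without filter or pseudocount, with Benjamini-Hochberg adjustment over all 1346 entries and a threshold of 0.05. Sharing the spread gave 21.0 degrees of freedom. The fit was also run on simulated normal scores drawn independently for each entry, a setting without the repeated entries of these data. Role means counted each distinct set of scores once. Alternatives were a replicate block, centring, division by the SD, leaving out 1 sample at a time, a trended and robust variance, 1 entry per distinct set and, for role means, each entry or each factor counted once. Named were all entries of the members, related bZIP lists and the 3 nearest motifs for Bach2, Nfe2l2 and Mafk. Members and lists were chosen with earlier results of these data known. A related factor and a nearest motif that this rule names are not reported here. Motif letters were not used here.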

Additional observations from a re-analysis of the deposited data

How the results depend on the processing

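No motif of the 12 passed under 8 of the 9 alternatives, and 1 (Nfe2l2, -2.18, limma adjusted p = 0.0172) did without venetoclax replicate 1, so that count ranged from 0 to 1 and the count of all motifs from 0 to 337 with a sample left out. In the fit without venetoclax replicate 1 each of the 12 had the same SE (0.74), so its p held no spread particular to a motif. A trended and robust variance called 74 of all motifs and none of the 12. Nfe2l1, Nfe2l2 and Maf entry 663 kept their direction under all 9 alternatives. The other 9 motifs changed sign in at least 1 of the 4 fits with a sample left out. The groups of Nfe2l1, Nfe2l2 and Maf entry 663 did not overlap, which alone fixes their sign with a sample left out. A replicate block, a trended and robust variance and 1 entry per distinct set cannot change a difference. For these motifs the direction was thus free to turn only with centring and division by the SD. Without vehicle replicate 1 the sign turned for Bach1 (-0.15), Bach2 (-0.24), Maf entry 667 (-0.10) and Mafg (0.48). Without vehicle replicate 2 it turned for Nfe2 (0.64), Maf entry 666 (-0.18) and Mafk (0.032). Without venetoclax replicate 1 it turned for Nfe2 (0.084), Mafg (0.084) and Mafk (0.11). Without venetoclax replicate 2 it turned for Bach1 (-0.10), Bach2 (-0.063) and Maf entries 664 (0.052), 666 (-0.22) and 668 (0.11). With a sample left out the Bach1 difference ranged from -0.15 to 1.61, Bach2 from -0.24 to 0.46, Nfe2 from -0.94 to 0.64, Mafg from -0.55 to 0.48, Mafk from -0.37 to 0.11 and the Maf entries from -0.86 to 0.052 (664), -0.22 to 0.67 (666), -0.10 to 0.77 (667) and -1.32 to 0.11 (668). Centring turned Nfe2 (0.11), Mafg (0.23) and Mafk (0.13), since it adds 0.26 to each difference, and moved the differences of the small Maf, large Maf and all Maf means to 0.18, 0.41 and 0.34. Division by the SD turned Mafg (0.0072). With a sample left out, the venetoclax minus vehicle difference of the Nfe2 mean ranged from -1.34 to -0.54, that of the Bach mean from -0.19 to 1.03 and that of Bach minus Nfe2 from 0.79 to 1.93. The cause of these changes was not tested.

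With the replicate number as a block, limma called 0 of all motifs and 0 of the 12, and the differences were unchanged, with Nfe2l2 at -1.64 (adjusted p = 0.546). The deviations of same-numbered samples from their group means had a correlation of -0.27 across motifs, and the labels do not tie the numbers, so no pairing was assumed. The depth is unknown, and the 95% intervals of the 12 reached from 1.42 to 1.62 score units to either side.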

Other observations

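The values in this paragraph were picked out after they had been seen. Of all 1346 entries, the one with scores nearest to those of the Nfe2 motif was Jund, an AP-1 subunit, at a Euclidean distance of 0.27 beside a median of 2.22. With vehicle Jund scored -1.49 and 0.45, and with venetoclax -0.83 and -0.44, against -1.26, 0.31, -0.85 and -0.39 for Nfe2. In both motifs vehicle replicates 1 and 2 enclosed the venetoclax samples. For the Bach1 motif the nearest AP-1 entry was a Jdp2 motif (entry 211), at a distance of 0.77 beside a median of 3.93, with 1 other entry nearer. With vehicle this Jdp2 motif scored -2.41 and -0.52, and with venetoclax -1.82 and 0.24, so replicate 1 was low and replicate 2 high in each treatment, as for Bach1. The remaining members had no AP-1 entry as near in rank. From 4 (Maf entry 664) to 238 (Mafk) other entries, repeats counted, were nearer to them than any AP-1 entry, with 169 for Bach2. Within the family, Bach1 lay far from Maf entry 664, at a distance of 6.24, whereas Bach2 and Maf entry 667 were the closest pair, at 0.47.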
